A study of Mus musculus with 9 samples.

Results

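The peaks described here are the open chromatin regions that the authors' annotation labels "5' UTR Exon". They were taken by that label alone, and numbered 10459 of the 115727 peaks in the deposited table (9.04%), on 2993 transcripts of 2858 genes. The table comes from ATAC-seq, in which the Tn5 transposase cuts accessible DNA and the reads at a peak measure how accessible it was. The cells were naive CD4+ T cells, isolated by negative selection from untreated C57BL/6 mice. There were 3 genotypes with 3 libraries each: wild type (WT), a knockout named both Il21e KO and IL21KO in the labels (Il21e_KO here), and a knockout of Stat6 (Stat6_KO). No other allele, agent, age or sex is given in the labels, and what DNA the Il21e_KO allele lacks is not described there. Nothing in the labels says that the 3 libraries of a genotype came from separate mice, so each p-value measures only the spread between these libraries, which may be technical.

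The 5′ untranslated region is the part of a messenger RNA between its start and the start codon. It can be spread over several exons, and the introns between those exons can be far longer than the leader itself. Such introns are known to hold enhancers and alternative promoters, and in T cells the genes of many transcription factors and signalling proteins have long leader introns. STAT6 is the transcription factor activated by interleukin 4, and interleukin 21 is a cytokine of activated CD4+ T cells that signals through JAK1, JAK3 and mainly STAT3.

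The positions of the peaks went against a narrow reading of the label. No peak lay closer than 100 bp to the start of its transcript, and the smallest distance was exactly 100 bp. That limit may be set by the annotation, so it says nothing about the reading. The median distance was 15.2 kb (quartiles 6.14 and 37.6 kb), and 739 peaks (7.07%) lay 100 kb or more away. Spliced leaders are rarely that long. In 1167 transcripts that carried both a 5' UTR Exon peak and a peak in a numbered intron, the intron peak began before the last 5' UTR Exon peak in 0. The same count was 0 of 824 for peaks in coding exons. Of the 2815 transcripts with a peak in intron 1, only 8 also carried a 5' UTR Exon peak, and where both labels occurred the lowest intron number had a median of 3. On coding transcripts the label therefore covered the whole stretch from the transcript start to the start codon, leader introns included. The peaks are called by their label throughout.

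Noncoding transcripts entered the class by strand. They carried 1540 of the peaks (14.7%), all 1540 on the plus strand and 0 on the minus strand, whereas the peaks on coding transcripts were spread over both strands (4625 plus, 4294 minus). The 3' UTR label was borne by 1440 peaks of noncoding transcripts, all on the minus strand. An intron or coding exon label was borne by 0 of their peaks. Noncoding transcripts have no start codon, so on them the 5' UTR Exon label marks no leader. Of the carrying genes, 2513 were protein-coding and 310 were long noncoding RNA genes in RefSeq.

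**Figure D1:**
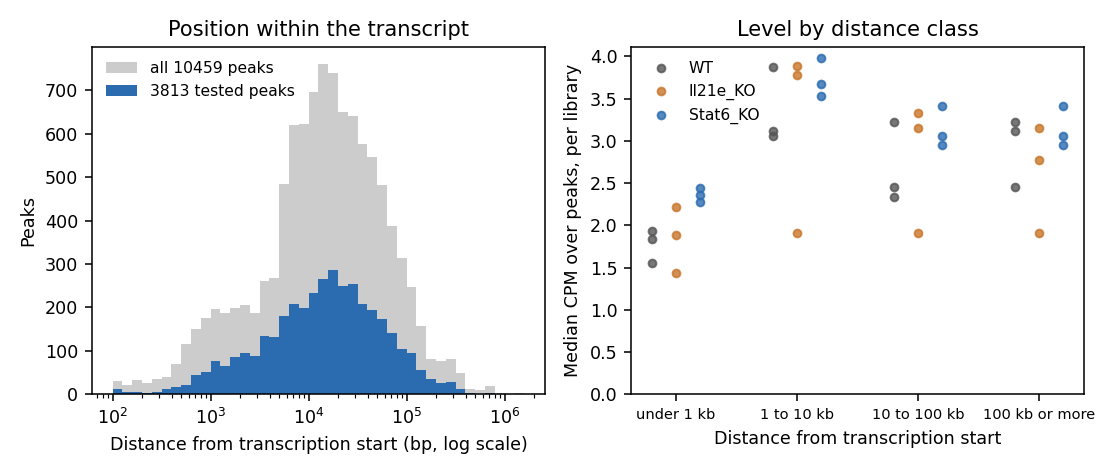
Left, number of 5' UTR Exon peaks by distance from the transcription start (log axis), for all 10459 peaks (grey) and the 3813 that were tested (blue). Right, median CPM of the peaks in each distance class, 1 point per library; the peaks under 1 kb from the start were the weakest class overall at a median of 1.81 CPM.

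The peaks were modest in height. Levels are in CPM (read counts scaled to the sum over all peaks of the library), as deposited. The mean over the 9 libraries had a median of 2.92 CPM (quartiles 1.297 and 8.78), with a range from 0.630 to 74.4 CPM, and 2321 peaks (22.2%) reached 10 CPM. The median width was 389 bp, against 1064 bp for peaks at transcription starts. Peaks under 1 kb from the start (694) had a median of 1.81 CPM, those at 1 to 10 kb (3233) 3.37 CPM, those at 10 to 100 kb (5793) 2.83 CPM and those farther away (739) 2.82 CPM. The class nearest the start was the lowest, as the plot of level by distance class shows. Peaks at the start itself bear another label, so this class leaves them out.

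Within each library, the median 5' UTR Exon peak was lower than the median peak at a transcription start in 9 of 9 libraries. The log2 ratio of the medians was −2.95 ± 0.43 (SD, n = 9; exact 2-sided sign-flip permutation test, p = 0.00390625, the smallest that 9 libraries can give). Divided by peak width, the log2 ratio was −1.29, and among tested peaks it was −1.13. Medians at this level are small whole numbers of reads, so classes can tie. Against peaks in coding exons the medians tied in all 9 libraries, and the log2 ratio was 0. Against peaks in first introns it was −0.03 ± 0.09 (SD, n = 9), with ties in every library except Stat6_KO 3. With such ties the exact permutation test can only give p = 1, so these medians do not show that the classes were equal. Per kb of peak width the log2 ratio to coding exon peaks was 0.157, higher in 9 of 9 libraries (exact permutation test, p = 0.00390625). To first intron peaks it was −0.0362, higher in 0 of 9 (exact permutation test, p = 0.00390625). Over tested peaks only it was −0.0776 to coding exon peaks, higher in 0 of 9 (exact permutation test, p = 0.0078125). To first intron peaks it was then 0.0247, higher in 3 of 9 (exact permutation test, p = 0.25). These differences were small, and their sign depended on the measure or on the filter.

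In some genes the order was the other way round. Of the 2182 genes that also had a peak at their transcription start, 404 (18.5%) had a 5' UTR Exon peak above it. The median ratio of the strongest 5' UTR Exon peak to the start peak was 0.334. Levels here were not divided by width, and a gene with more 5' UTR Exon peaks had more chances to exceed its start peak. The other 676 genes had no peak labelled TSS (transcription start) in the table. Start peak means that label here, and a promoter peak under another label was not counted. Cd4, the coreceptor that defines these cells, had its only 5' UTR Exon peak 1.62 kb downstream of the start at a mean of 45.5 CPM, against 5.51 CPM at the start itself. In Il21r, the gene of the interleukin 21 receptor, the strongest 5' UTR Exon peak had 42.8 CPM and the start peak 14.5 CPM.

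The highest of the peaks was in Elmsan1, a component of histone deacetylase complexes, on chromosome 12 from 85516478 to 85518875 (mm9), 41.0 kb from the start. It measured 82.6, 73.2 and 72.2 CPM in WT, 74.3, 71.8 and 75.5 CPM in Il21e_KO, and 75.6, 69.5 and 75.2 CPM in Stat6_KO, so that the 3 genotypes overlapped. The Bach2 peak (chromosome 4, 32510404 to 32512774), in the gene of a repressor that maintains naive T cells, measured 61.2, 67.0 and 59.3 CPM in WT, 77.2, 58.0 and 66.0 CPM in Il21e_KO, and 66.5, 58.9 and 74.0 CPM in Stat6_KO, again overlapping. By mean level, Bach2 (65.3 CPM) ranked after Csrnp1 (73.1 CPM) and Nsd1, a histone methyltransferase (66.0 CPM). Next came Atxn7l1 (63.6 CPM), Hivep2, a zinc finger protein (63.1 CPM), and Prkcz, an atypical protein kinase C (60.4 CPM). Rnf125, a ubiquitin ligase of T cells (60.3 CPM), Chd9, a chromatin remodeller (59.3 CPM), Tspan9 (58.9 CPM), the cation channel gene Trpv2 (58.8 CPM) and Elfn1 (58.0 CPM) completed the 12 highest. Of the 12 genes, 8 had a start peak in the table, and in 7 of those 8 the 5' UTR Exon peak was above it, among them Tspan9 with 15.7 CPM at the start. These peaks were picked by their height, and the median peak at a transcription start had 23.7 CPM. That order therefore follows largely from the choice.

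A small number of genes held many of the peaks. The median gene carried 2, and 1199 genes carried 1, but the 231 genes with 10 or more held 4101 peaks (39.2%). Foxp1, a transcription factor that keeps naive T cells quiescent, carried 103, of which 101 lay on 1 transcript, spread from 122 bp to 355.853 kb behind its start. The strongest of them (chromosome 6, 99121347 to 99123165) lay 348 kb from the start at 58.0 CPM. Summed over the 103 peaks, Foxp1 gave 1076, 1050 and 1104 CPM in WT, 1071, 1083 and 1063 CPM in Il21e_KO, and 1075, 1036 and 1039 CPM in Stat6_KO. The 3 genotypes overlapped, and the profile along the gene looked alike in the plot of its peaks.

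**Figure D2:**
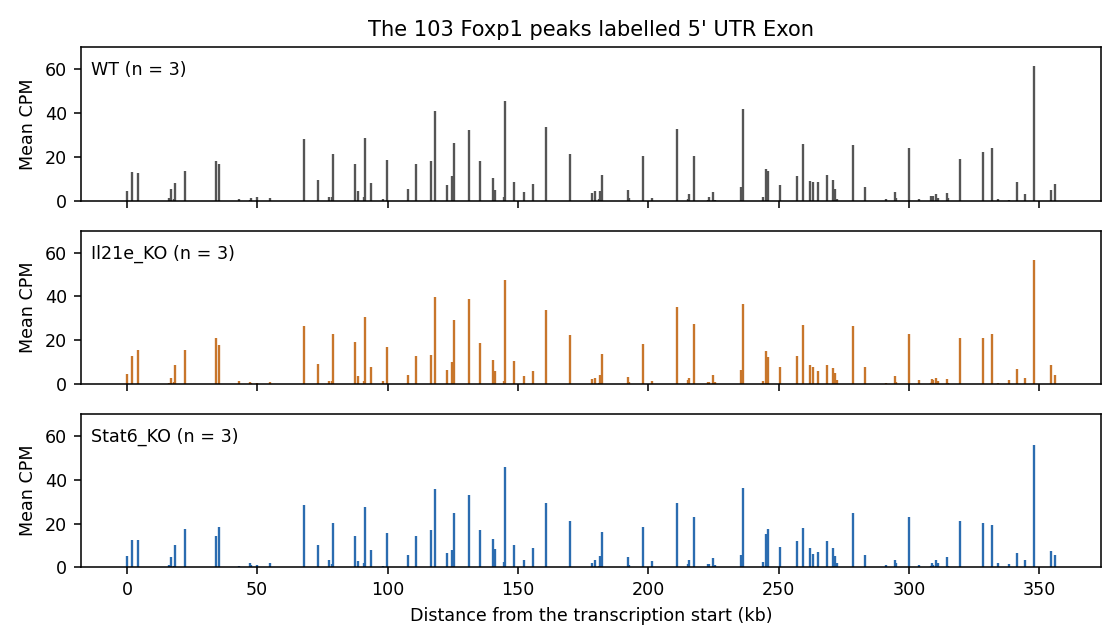
Mean CPM (vertical axis, n = 3 libraries) of the 103 Foxp1 peaks labelled 5' UTR Exon by their distance from the start of their own transcript (horizontal axis, kb), 1 panel per genotype. The tall peak near 348 kb and the series of peaks between the start and that point stand at similar heights in the 3 panels.

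The 7 genes next in number of peaks were Sgms1, a sphingomyelin synthase (63), Mbnl1, a splicing regulator (56), the noncoding RNA gene Pvt1 (49), Ncoa2, a nuclear receptor coactivator (47), Sipa1l1 (44), Sh3kbp1, an adaptor of receptor endocytosis (43), and Atxn1 (43). Sh3kbp1 was the only one of these 8 genes whose summed level in Stat6_KO (271, 280 and 271 CPM) lay apart from WT (235, 256 and 263 CPM). Among all tested peaks these groups did not overlap in 13.2%, a share for single peaks and not for sums. At that share, 1 gene of 8 is no result about Sh3kbp1. The Il21e_KO sums were 220, 263 and 252 CPM. Sums in Atxn1 were between 291 and 308 CPM in 8 libraries and 195 CPM in Il21e_KO 1.

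That library stood apart in the whole data set. Reads in peaks ranged from 1049460 to 1802405 per library, with the lowest number in Il21e_KO 1. In it, 42.7% of reads fell in peaks at transcription starts, against 31.6 to 36.4% in the other 8, and 27200 of all peaks had 0 reads, against 3898 to 12916. Among marker genes read from their start peaks in WT, 7 of 7 T cell genes had a peak (median 17.6 CPM) and 5 of 5 B cell genes did (median 1.54 CPM). Cd8a, Klrb1c, Lyz2, Csf1r, Hba-a1, Hbb-b1 and Klf1, of CD8 T, NK, myeloid and erythroid cells, had no peak labelled TSS in the table. Start peaks were present for 2 of 3 CD8 T, 3 of 4 NK, 3 of 5 myeloid and 1 of 4 erythroid genes. In WT the highest was 39.4 CPM among myeloid and 17.2 CPM among erythroid genes, beside 76.9 CPM among T cell genes. The summed level of the 4 NK cell genes was 42.6 to 46.7 CPM in WT and 47.9 to 52.4 CPM in Il21e_KO, which lay apart. It was 43.6 to 46.5 CPM in Stat6_KO. The summed level of the 3 CD8 T cell genes was 41.9 to 45.9 CPM in WT, 41.6 to 43.8 CPM in Il21e_KO and 35.9 to 41.6 CPM in Stat6_KO, with Stat6_KO below WT. The B cell sums were 6.73 to 29.02 CPM in WT, 8.58 to 18.9 CPM in Il21e_KO and 18.8 to 23.9 CPM in Stat6_KO. Myeloid sums were 41.6 to 56.7 CPM in WT, 41.9 to 56.0 CPM in Il21e_KO and 41.6 to 46.6 CPM in Stat6_KO. Erythroid sums were 14.2 to 21.0 CPM in WT, 16.2 to 23.9 CPM in Il21e_KO and 16.5 to 20.2 CPM in Stat6_KO. The part of these levels in the results was not tested.

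The share of each library's reads in 5' UTR Exon peaks was 6.85, 6.91 and 7.26% in WT, 6.26, 7.16 and 7.11% in Il21e_KO, and 7.30, 7.14 and 7.21% in Stat6_KO. The lowest share, in Il21e_KO 1, had a 95% Wilson interval from 6.21 to 6.30%, and the highest one from 7.26 to 7.34%; such intervals cover counting error only. The Stat6_KO mean exceeded WT by 0.211 percentage points (exact 2-sided permutation test, n = 3 against 3, p = 0.3), and the groups overlapped. This difference was 0.133 points without WT 1, 0.337 points without WT 3, and 0.0291 points (exact permutation test, p = 0.5) when only peaks up to 1 kb wide were counted. The Il21e_KO mean was 0.160 points below WT (exact permutation test, p = 0.8), and without Il21e_KO 1 it was 0.133 points above it (exact permutation test, p = 0.6). Over peaks up to 1 kb wide the difference from WT was −0.0804 points (exact permutation test, p = 0.2), and −0.0601 points without Il21e_KO 1 (exact permutation test, p = 0.4). Stat6_KO exceeded Il21e_KO by 0.371 points (exact permutation test, p = 0.2), by 0.0773 points without Il21e_KO 1 (exact permutation test, p = 0.4), and by 0.110 points over peaks up to 1 kb wide (exact permutation test, p = 0.1). With 3 libraries against 3 the smallest p possible is 0.1.

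5' UTR Exon peaks without a read made up 10.1, 11.2 and 5.91% in WT, 24.8, 5.29 and 4.07% in Il21e_KO, and 3.36, 4.50 and 5.54% in Stat6_KO. The Stat6_KO libraries all lay below the WT libraries, with means of 4.47% ± 1.09 and 9.09% ± 2.81 (SD, n = 3 each; exact 2-sided permutation test, p = 0.1). The depth ran the same way, with 1634889 to 1759775 reads in peaks in Stat6_KO and 1284426 to 1634247 in WT, and its part in this difference was not tested.

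**Figure D3:**
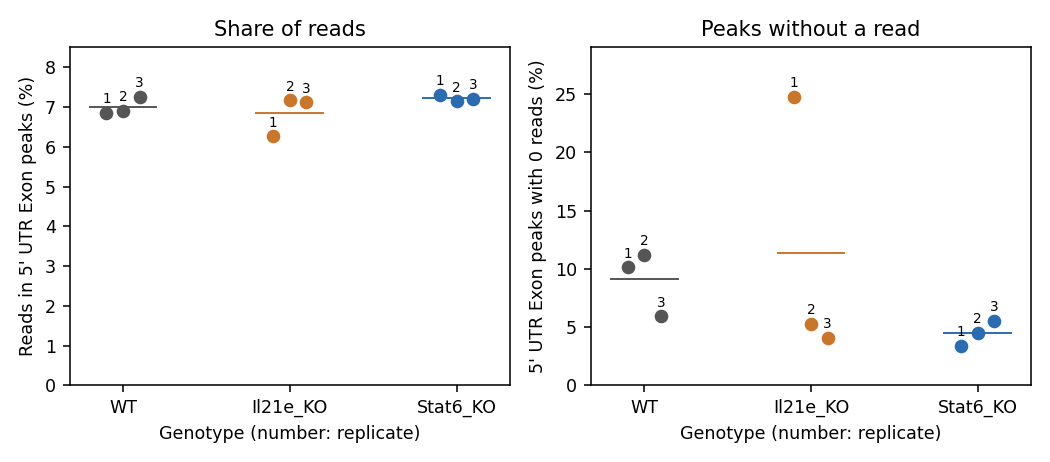
Left, percent of each library's reads in peaks that fell in 5' UTR Exon peaks; right, percent of the 5' UTR Exon peaks with 0 reads. Points are libraries with their replicate numbers and lines are group means (n = 3); Il21e_KO 1 has the lowest share of reads (6.26%) and the highest share of peaks without a read (24.8%).

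The question put to the 3 genotypes was which of these regions were more or less open without Stat6 or in Il21e_KO. Of the 10459 peaks, 3813 (36.5%) had enough reads for a test, against 48287 of all peaks (41.7%). Each was tested with limma-trend on log2(CPM + 1) in 1 fit over the 9 libraries, with Benjamini-Hochberg adjustment over all 48287, and fold changes below are on that scale, which understates the change of low peaks. The 2 knockout comparisons share the WT libraries.

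In Stat6_KO against WT, 0 of the 3813 tested peaks passed an adjusted p of 0.05, with 0.0104% of all tested peaks called (5 peaks). edgeR and DESeq2 on recovered reads likewise called 0 of them, where each called 0.0124% of all tested peaks, and the lowest adjusted p in limma-trend was 1.00. At an unadjusted p under 0.05 there were 147 (3.86%), where 3.29% of all tested peaks were called. Of those, 89 were higher (2.33%, background 1.68%) and 58 lower (1.52%, background 1.62%). The split was 79 and 74 with TMM scaling, and 123 and 50 in edgeR. The groups did not overlap in 544 peaks (14.3%, background 13.2%), with 313 higher (8.21%, background 6.31%) and 231 lower (6.06%, background 6.89%). The median log2 fold change was 0.03, beside −0.00 over all tested peaks and −0.08 for peaks at transcription starts, and with TMM scaling it was −0.01, on the other side of 0. The shares without regard to direction were near the background. The higher shares lay above it, and the split by direction depended on the scaling and the tool.

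Among peaks with the smallest p and higher mean levels in Stat6_KO was one in Adam19, a membrane metalloprotease gene (chromosome 11, 45930008 to 45930589, 60.5 kb from the start). It measured 5.51, 3.89 and 5.80 CPM in WT, 2.86, 10.1 and 9.99 CPM in Il21e_KO, and 11.9, 13.5 and 14.7 CPM in Stat6_KO. All Stat6_KO libraries lay above all WT libraries, with a log2 fold change of 1.26 ± 0.36 (SE) and an unadjusted p of 0.00261 in limma-trend. The Rnf125 peak at 21128479 to 21129075 on chromosome 18 read 11.6, 8.56 and 9.03 CPM in WT and 18.2, 18.3 and 17.7 CPM in Stat6_KO, a log2 fold change of 0.84 ± 0.25 (SE). It read 5.72, 9.45 and 11.1 CPM in Il21e_KO, so that Stat6_KO lay above both other genotypes. Another peak of the same gene, 16.4 kb from the start and among the 12 strongest, had 69.8, 61.5 and 59.97 CPM in WT and 54.0, 55.9 and 49.5 CPM in Stat6_KO. The 2 peaks in Rnf125 thus lay on opposite sides of WT.

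The other peaks with the smallest p and higher means were in Coro2a, an actin-binding coronin, Gpat4, an acyltransferase of glycerolipid synthesis, Mid1, a microtubule-associated ubiquitin ligase, Add3, an adducin of the membrane skeleton, Tmem184b and Gpbp1. Their log2 fold changes ran from 0.64 (Add3) to 1.23 (Mid1), and in each the Stat6_KO libraries lay above the WT libraries. Mid1 was also among the named peaks of Il21e_KO. In laboratory mice Mid1 spans the boundary of the pseudoautosomal region, and the labels do not give the sex of the animals.

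On the lower side, the peak in Sgms1 (chromosome 19, 32271314 to 32272348, 151 kb from the start) measured 21.4, 24.1 and 25.2 CPM in WT, 42.9, 15.8 and 17.8 CPM in Il21e_KO, and 13.1, 12.4 and 12.2 CPM in Stat6_KO. Its log2 fold change was −0.86 ± 0.28 (SE), and Stat6_KO lay below WT in every library. The peak in Pik3r5, a regulatory subunit of phosphoinositide 3-kinase gamma (chromosome 11, 68264483 to 68265426), measured 26.3, 23.4 and 20.6 CPM in WT, 35.3, 18.3 and 17.2 CPM in Il21e_KO, and 12.5, 11.8 and 14.1 CPM in Stat6_KO. Its log2 fold change was −0.82 ± 0.24 (SE). The peak in Hdac9, a class IIa histone deacetylase (chromosome 12, 35591770 to 35592404), rested on few reads, 8, 11 and 13 in WT, 0, 11 and 13 in Il21e_KO, and 4, 0 and 1 in Stat6_KO. Its log2 fold change was −2.22 ± 0.79 (SE). Smco4, Mctp2, Airn, an imprinted noncoding RNA gene, Sqrdl, a mitochondrial sulfide oxidase, and Fam107b had log2 fold changes from −0.70 (Airn) to −0.59 (Fam107b), all with Stat6_KO below WT in every library.

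The library that stood apart weighed on this comparison through the shared estimate of spread. Without Il21e_KO 1, 61 of all tested peaks passed in Stat6_KO against WT (0.126%), and 5 of the 3813 did (0.131%), again near the background. These were the peaks in Adam19 (adjusted p = 0.00975 in limma-trend), Hdac9 (adjusted p = 0.0175), Sgms1 (adjusted p = 0.0238), Pik3r5 (adjusted p = 0.0359) and Gm20098 (adjusted p = 0.0461). Gm20098, a predicted gene, fell outside the naming rule and was chosen after its values were seen. In a fit of WT and Stat6_KO alone, 2 passed, Adam19 (adjusted p = 0.0216) and Sgms1 (adjusted p = 0.0445). In each of the 5 peaks, Il21e_KO 2 and 3 lay close together and Il21e_KO 1 lay apart from them, as the plot of these peaks shows. The peaks were picked for passing without Il21e_KO 1, a choice that favours this pattern, so it is no result about them.

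**Figure D4:**
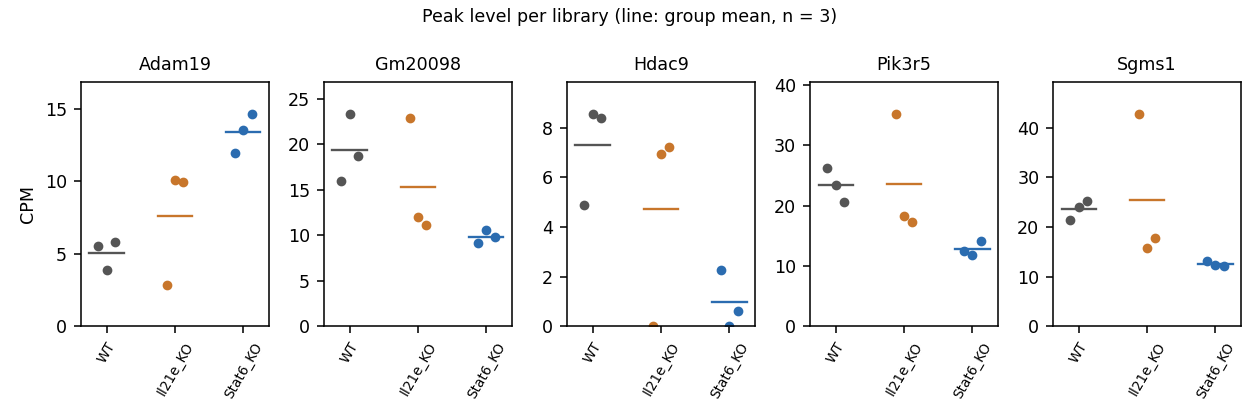
CPM per library (points) and group mean (lines, n = 3) of the 5 peaks that passed in Stat6_KO against WT once Il21e_KO 1 was left out. The Stat6_KO libraries lie above WT in Adam19 and below it in Gm20098, Hdac9, Pik3r5 and Sgms1. In each panel 1 Il21e_KO library lies apart from the other 2, which the choice of these peaks favours.

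In Il21e_KO against WT, 0 of the 3813 passed, where 0% of all tested peaks were called by limma-trend, and edgeR and DESeq2 also called 0. Without Il21e_KO 1 the count stayed at 0 (background 0.00414%). An unadjusted p under 0.05 was reached by 117 (3.07%), against 3.52% of all tested peaks. There were 27 higher (0.708%, background 1.1%) and 90 lower (2.36%, background 2.41%). The groups did not overlap in 289 (7.58%, background 7.28%), with 100 higher (2.62%, background 2.84%) and 189 lower (4.96%, background 4.44%). All tested peaks had the same lean. Without Il21e_KO 1 there were 117 higher and 123 lower of the 3813, and edgeR gave 43 and 52. The median log2 fold change was −0.05, beside −0.03 over all tested peaks, 0.01 in edgeR and 0.02 without Il21e_KO 1.

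The smallest p among the lower ones was in Arntl, the clock gene also named Bmal1 (chromosome 7, 120406352 to 120406970). It measured 20.2, 20.2 and 18.7 CPM in WT, 8.58, 12.6 and 12.2 CPM in Il21e_KO, and 13.1, 15.3 and 14.1 CPM in Stat6_KO. Both knockouts lay below WT without overlap, with log2 fold changes of −0.79 ± 0.21 (SE) in Il21e_KO and −0.45 ± 0.21 (SE) in Stat6_KO, which share the WT libraries. In Nosip, which regulates nitric oxide synthase, the peak gave 6.12, 9.34 and 11.6 CPM in WT and 1.91, 3.78 and 3.88 CPM in Il21e_KO, a log2 fold change of −1.26 ± 0.34 (SE). The others on this side were Etv6, an ETS family repressor, Mkl1, a coactivator of serum response factor, Eya2, Osbpl3, Fam49b and Filip1l. In Eya2 and Osbpl3, 1 read each was counted in Il21e_KO 1, the lowest value of their group.

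On the higher side, the peak in Mid1 measured 1.84, 3.11 and 3.87 CPM in WT, 7.62, 5.67 and 9.99 CPM in Il21e_KO, and 5.11, 10.01 and 9.79 CPM in Stat6_KO. Both knockouts lay above WT in every library, and neither difference passed the adjusted test. The peak in Klf8, a Krüppel-like factor gene, had 23.9, 27.2 and 33.5 CPM in WT and 35.3, 43.5 and 41.6 CPM in Il21e_KO, with a log2 fold change of 0.50 ± 0.17 (SE). Fam49b, an inhibitor of actin remodelling through RAC1, appeared on both sides. Its peak 35.9 kb from the start had a log2 fold change of 0.60 ± 0.20 (SE) in Il21e_KO, and its peak 92.4 kb from the start one of −1.15 ± 0.36 (SE), with 2 reads in Il21e_KO 1. Dnajb6, a chaperone, Arhgap15, a RAC1 regulator, Cyld, a deubiquitinase of NF-κB signalling, Ptprs, a receptor phosphatase, and Nipbl, the cohesin loader, made up the rest of that list.

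**Figure D5:**
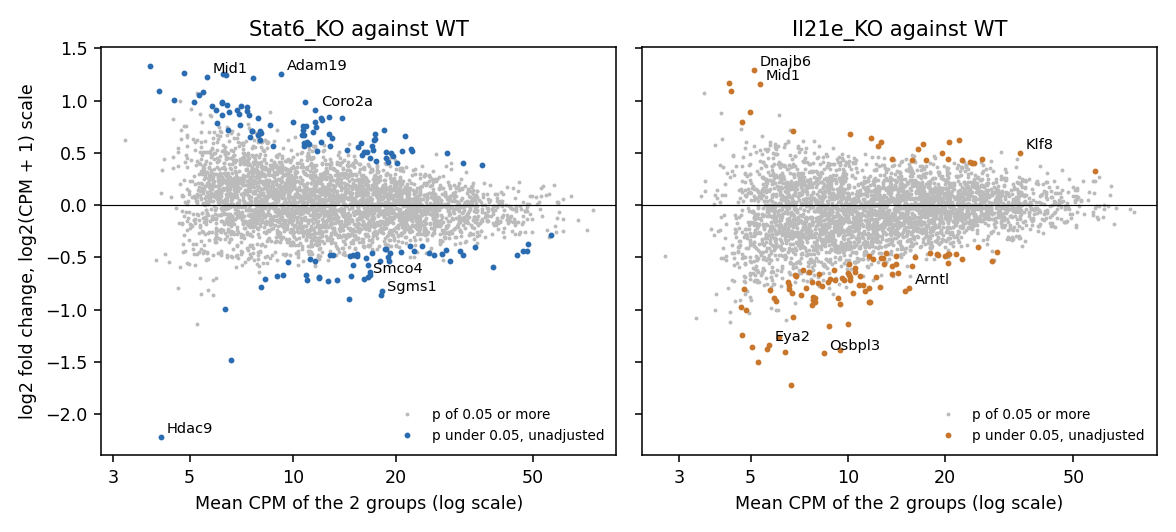
Log2 fold change of the 3813 tested 5' UTR Exon peaks (vertical axis, log2(CPM + 1) scale) against their mean CPM over the groups compared (horizontal log axis), for Stat6_KO (left) and Il21e_KO (right) against WT. Coloured points have an unadjusted p under 0.05 (147 and 117 peaks), and 0 passed the adjusted test in either panel.

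Between the knockouts, 0 of the 3813 passed, where 0.0104% of all tested peaks were called, and edgeR (background 0.0249%) and DESeq2 (background 0.0145%) called 0 of them as well. Without Il21e_KO 1 the count was also 0 (background 0.0352%). The lowest adjusted p was 0.780 in limma-trend. An unadjusted p under 0.05 was reached by 216 (5.66%), against 5.68% of all tested peaks. Of these, 164 were higher in Stat6_KO (4.3%, background 3.31%) and 52 lower (1.36%, background 2.38%). That split was 125 and 78 with TMM scaling, 27 and 27 in DESeq2, and 74 and 62 without Il21e_KO 1. The groups did not overlap in 456 peaks (12%, background 11%), with 314 higher (8.23%, background 6.45%) and 142 lower (3.72%, background 4.59%). The Rnf125 peak at 21128479 had the smallest p, with a log2 fold change of 1.01 ± 0.25 (SE). Nck2, an adaptor of the T cell receptor, had 27.6, 27.1 and 27.7 CPM in Il21e_KO and 36.9, 38.9 and 44.7 CPM in Stat6_KO, a log2 fold change of 0.53 ± 0.16 (SE), and here Il21e_KO 1 did not differ from its group. The other peaks named on the higher side were in Gpat4, Hmox2, Zfhx3, Map3k20, Rnf19a and Rptor, and those on the lower side in Pik3r5, Hivep2, Sgms1, Sept9, Ppp6r1, Selplg, Ggta1 and Ahnak. The Ahnak peak was annotated to a noncoding transcript.

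Genes were then read by function. Of 30 naive T cell regulators, 10 carried 195 peaks, most of them in Foxp1. Of the 93 tested, 0 passed in any of the 3 comparisons. In Stat6_KO their median log2 fold change was −0.04 with 1 peak higher and 2 lower at an unadjusted p under 0.05 (background 1.68% and 1.62%), and in Il21e_KO it was 0.02 with 2 higher and 2 lower (background 1.1% and 2.41%). Beside Foxp1 and Bach2 the list included Tcf12, an E protein (26 peaks), Elf1, an ETS factor (14), Zbtb7b, which specifies CD4 T cells (7), and Klf3 and Ikzf1 (6 each). The strongest Klf3 peak had a mean of 44.6 CPM, and the peak at the gene's start one of 46.2 CPM. The single Lef1 peak measured 7.34, 10.1 and 10.96 CPM in WT and 6.82, 10.6 and 9.17 CPM in Stat6_KO, and the groups overlapped.

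Cytokine, JAK and STAT genes held 89 peaks in 12 of 34 genes, and of the 41 tested 0 passed. Stat6 itself carried none. Jak1, the kinase shared by the receptors for interleukins 4 and 21, carried 33. Its strongest peak (chromosome 4, 100926509 to 100928101) measured 59.4, 56.1 and 47.1 CPM in WT, 55.3, 48.5 and 39.4 CPM in Il21e_KO, and 40.9, 37.7 and 40.4 CPM in Stat6_KO. Stat6_KO lay below WT in every library, with a log2 fold change of −0.43 ± 0.16 (SE). Groups without overlap made up 13.2% of all tested peaks in this comparison. Over the 14 tested Jak1 peaks the log2 fold changes ran from −0.43 to 0.77, with 1 higher and 1 lower at an unadjusted p under 0.05. Il21r carried 6 peaks, and the strongest measured 42.8, 49.8 and 38.0 CPM in WT, 42.9, 45.4 and 44.4 CPM in Il21e_KO, and 40.9, 35.9 and 45.3 CPM in Stat6_KO, all overlapping. A weaker Il21r peak (from 132765134 on chromosome 7) had 15, 8 and 17 reads in WT, 0, 10 and 10 in Il21e_KO, and 14, 9 and 17 in Stat6_KO, and its value of 0 was again in Il21e_KO 1. Il4ra, which encodes the receptor chain through which interleukin 4 activates STAT6, carried 9, and its strongest peak had means of 18.7 CPM ± 3.49 in WT, 25.02 CPM ± 6.53 in Il21e_KO and 22.0 CPM ± 2.13 in Stat6_KO (SD, n = 3 each). Stat5b (14 peaks) had its strongest peak at 25.1, 13.2 and 12.9 CPM in WT and 41.0, 18.3 and 22.2 CPM in Il21e_KO, where the overlap was again broad and Il21e_KO 1 the highest. The median log2 fold change of the list was 0.03 in Stat6_KO and 0.01 in Il21e_KO, each with 1 peak higher and 2 lower at an unadjusted p under 0.05. Between the knockouts, 5 were higher in Stat6_KO (background 3.31%) and 1 lower (background 2.38%). Of those 5, Jak1 and Il21r held 2 each. The part of Il21e_KO 1 in these counts was not tested.

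Genes of T cell receptor signalling held 143 peaks in 12 of 47 genes, and 0 of the 78 tested passed. Fyn, a proximal kinase, carried 42, Cd247, the zeta chain of the receptor, 26, and Prkcq, the protein kinase C of the synapse, 20. The 16 tested Cd247 peaks were annotated to a noncoding transcript of the gene, so their label marks no leader. The strongest Cd247 peak measured 49.6, 45.9 and 49.7 CPM in WT, 53.4, 46.6 and 42.7 CPM in Il21e_KO, and 42.1, 44.7 and 47.7 CPM in Stat6_KO. In Prkcq the strongest of these peaks, at 41.1 CPM, stood above the start peak at 23.2 CPM. The list's median log2 fold change was −0.07 in Stat6_KO and −0.10 in Il21e_KO, with 2 and 3 peaks lower and 0 higher at an unadjusted p under 0.05, where the background was 1.62% and 2.41% lower. These few peaks are no result about the list. The strongest Cd4 peak overlapped between genotypes, at 47.1, 55.3 and 34.8 CPM in WT, 67.7, 40.3 and 43.3 CPM in Il21e_KO, and 38.6, 42.4 and 39.8 CPM in Stat6_KO.

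The remaining lists held few of the peaks. Genes known for upstream reading frames and stress control, where a leader acts on translation, had 22 peaks in 6 of 24 genes and 3 tested, with 12 of the 22 in the amino acid transporter gene Slc7a1. Genes of quiescence and RNA decay had 18 in 6 of 24 genes, 8 of them in Ccr7, the homing receptor, and 11 were tested. Helper T cell fate genes had 10 in 6 of 27 genes and 2 tested, 1 of them in Bcl6. Of 20 ubiquitously expressed genes, 0 carried a 5' UTR Exon peak. In each of these lists 0 tested peaks passed and 0 reached an unadjusted p of 0.05 in the 3 comparisons. The strongest Bcl6 peak had 26.9, 30.4 and 27.7 CPM in WT, 52.4, 27.7 and 18.3 CPM in Il21e_KO, and 23.9, 20.02 and 17.7 CPM in Stat6_KO, where Stat6_KO lay below WT without passing.

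The targeted genes gave no check of the genotypes here, because neither Stat6 nor Il21 carried a 5' UTR Exon peak. Within 10 Mb of Stat6 on chromosome 10 there were 51 of the peaks, 21 tested, and 0 reached an unadjusted p of 0.05 in Stat6_KO. The smallest p there was in Arhgap9, a GTPase-activating protein gene, whose peak measured 7.95, 9.34 and 7.09 CPM in WT and 5.68, 5.89 and 4.89 CPM in Stat6_KO. Baz2a, a chromatin remodelling subunit, and Rap1b, a small GTPase, came next with log2 fold changes of −0.25 ± 0.16 and −0.47 ± 0.35 (SE). Within 10 Mb of Il21 on chromosome 3 there were 39, of which 7 were tested and 0 reached that p in Il21e_KO. Dcun1d1, Pld1 and Spry1, a Sprouty inhibitor of receptor signalling, had the smallest p there, with log2 fold changes of −0.55 ± 0.37, −0.28 ± 0.26 and −0.14 ± 0.27 (SE).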

How the data were processed

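ATAC-seq libraries from naive CD4+ T cells of 3 genotypes (3 libraries each) were read from 1 table of 115727 peaks with CPM values per library, deposited by the authors. Per the labels' protocols, libraries were made with Nextera reagents and sequenced as paired ends on an Illumina HiSeq. Bowtie 1.3.0, MACS2 2.0, HOMER and mm9 are named in the submitters' processing notes, without roles. The CPM steps gave whole reads within 0.01 read for 100% of values, and totals of 1049460 to 1802405 reads in peaks per library, so that a count of 0 allows up to 3 reads. Peaks were kept by filterByExpr (edgeR 4.0.16, minimum count 10, minimum total 15). They were tested with limma 3.58.1 (trend, log2(CPM + 1)) under R 4.3.3 with 1 coefficient per genotype. The fit was checked on simulated data with the same spread in every library, which does not cover a library that stands apart as Il21e_KO 1 does. edgeR's quasi-likelihood test on the recovered reads called 6, 0 and 12 of all peaks in Stat6_KO against WT, Il21e_KO against WT and Stat6_KO against Il21e_KO, and DESeq2 1.42.0 called 6, 0 and 7. Single values per library were compared by exact permutation with scipy 1.17.1. Gene classes came from RefSeq (GRCm38.p6), used for names only, in which 2856 of 2858 carrying genes matched.

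The peaks and gene lists were chosen with earlier results of these data known. Named peaks were, for each comparison and direction, the 8 with the smallest p (mean of at least 1 CPM, 1 per gene, without pseudogenes and clone names), the 12 highest, the 8 genes with most peaks, list members, and up to 3 within 10 Mb of Stat6 or Il21. Alternatives were other tools, filters, pseudocounts, scaling, groups in the fit, a replicate block and leaving out each library. No sequence is shown, since no mm9 genome was used here.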

Additional observations from a re-analysis of the deposited data

How the results depend on the processing

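In Stat6_KO against WT, all peaks called (5 with all libraries) came to 38 when only those 2 groups were fitted and to 3 to 61 with 1 library left out (61 without Il21e_KO 1, 9 without WT 1, 3 without WT 2 and 3 without WT 3), and the 5' UTR Exon peaks called to 2 and to 0 to 5. In Il21e_KO against WT, all peaks called (0) came to 1 without a filter and to 0 to 2 with 1 library left out, the 2 without Il21e_KO 1. Between the knockouts, all peaks called (5) came to 12 in edgeR, 16 without a filter, 8 with a pseudocount of 5 and 4 to 17 with 1 library left out (17 without Il21e_KO 1, 9 without WT 1). The Il21e_KO share of reads differed from WT by −0.320 to 0.133 percentage points with 1 library left out, positive without Il21e_KO 1. The log2 ratio of medians to coding exon peaks was 0.157 per kb and −0.0776 over tested peaks, and to first intron peaks −0.0362 and 0.0247. The Spry1 peak's log2 fold change in Il21e_KO ran from −0.304 to 0.0389 with 1 library left out, positive without WT 1 or Il21e_KO 1. The causes of these moves were not tested. For the other peaks named for their smallest p, for their place near Stat6 or Il21, or as called without a library, direction held in every alternative run, and 7 values became called, those given in the report. The 12 highest peaks and list members, given by their levels, were not run one by one, apart from the Jak1 peak, which stayed below WT in Stat6_KO. Correlations of same-numbered libraries (−0.186 to 0.249) spanned a range similar to that of others (−0.302 to 0.242). With 3 libraries per group this cannot settle whether replicate numbers pair the samples. With the replicate as a block all peaks called were 4, 0 and 5, with 0 5' UTR Exon peaks. Low reads left 6646 of the peaks untested.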
